A study of Mus musculus with 6 samples.

Results

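Respiratory complex I, the NADH dehydrogenase of the inner mitochondrial membrane, was followed here through its nuclear-encoded genes in RNA of mouse sperm nuclei and of whole sperm. Members were all rows of the count tables whose symbol began with Nduf followed by a, b, c, s or v, the Ndufaf assembly factors included and names holding -ps left out. This gave 45 of 23229 annotated genes: 7 core subunits, 10 accessory subunits of the matrix arm, 19 accessory subunits of the membrane arm, 7 assembly factors, and Ndufa4 with its paralog Ndufa4l2. By later work Ndufa4 belongs to complex IV, cytochrome c oxidase, and the pair was kept because the naming rule takes them. No row carried a name of the 7 mitochondrially encoded subunits.

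The fractions were sperm nuclei (2 preparations, nuclei 1 and nuclei 2) and whole sperm (1 preparation). Both came from mice of line HP3.1, a transgenic line on C57BL/6 aged 4 months, so every group carried the transgene, and the labels do not name it. Sperm of the cauda epididymis and vas deferens were used; nuclei were freed by sonication and purified through sucrose and caesium chloride with detergent, steps that whole sperm did not undergo. The labels give 2 sequencing runs for each preparation, treated as combined in its 1 column, and do not tie preparations to animals. P-values therefore rest on the spread between these preparations, which may be technical, and whole sperm has no spread of its own. In the main test this spread was pooled over genes, so a p-value does not reflect how closely a gene's own nuclei values matched.

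The depth over genes and regions was 5487306 counts for nuclei 1, 6648848 for nuclei 2 and 8316345 for whole sperm. Genes of sperm and of the epididymis stood at different levels in the fractions. A list of 20 spermatid genes, among them Tnp1 and Tnp2, summed to 6218 and 6035 CPM (counts scaled to library size, with TMM factors) in the nuclei libraries and 3324 CPM in whole sperm, and all 20 had counts in every library. A list of 33 epididymal genes summed to 2983 and 3018 CPM in nuclei against 17682 CPM for whole sperm.

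Complex I takes electrons from NADH, passes them along iron-sulfur clusters to ubiquinone and pumps protons. Core subunits carry the redox centres and the proton channels, accessory subunits surround and stabilise them, and assembly factors help to build the complex without staying in it. In sperm, mitochondria are wrapped around the midpiece of the tail, outside the nucleus. In the epididymal epithelium, as in other somatic cells, these genes are expressed too.

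Transcripts of complex I lay lower in nuclei than in whole sperm for most members, and no single gene passed the test. The 45 genes together had 1727 and 3507 counts in the nuclei libraries, against 7870 for whole sperm. Their share of counts was 0.0315% in nuclei 1 (exact 95% binomial interval 0.0300 to 0.0330) and 0.0527% in nuclei 2 (0.0510 to 0.0545), against 0.0946% in whole sperm (0.0926 to 0.0967). These intervals cover counting error only and do not overlap, so the spread between the nuclei preparations exceeded counting error as well. Normalised with TMM factors, the sum was 428 ± 139 CPM in nuclei (SD, n = 2) and 909 CPM in whole sperm, 2.13-fold lower in nuclei. The log2 ratio of the sums was -1.09 with TMM factors, -2.53 with spike-in scaling, where the median of all genes was -1.48, and -2.08 for summed RPKM. Spike-in scaling used the 23 ERCC spike-ins listed for every library. They held all spike-in counts of nuclei 1 (589074) and nuclei 2 (768443) but 364403 of 2570688 in whole sperm. All values with this scaling, signs and calls included, depend on that choice of spike-ins. These are shares of each library, and in bulk RNA fewer cells of a type cannot be told from less RNA per cell.

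Of the 45 genes, 43 had a count in some library. Ndufs5 and Ndufaf5 had none. Among the 43, the log2 fold change of nuclei over whole sperm was below 0 for 33, with a median of -1.48, whereas 49.8% of the 17096 annotated genes with a count were below 0, with a median of 0.01. Both nuclei libraries lay below whole sperm for 29 of the 43 genes and above it for 5, and the libraries were on both sides for 9. Over all genes with a count, 40.9% had both nuclei libraries below and 23.2% had both above. These are counts beside a background, without a test of the group.

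After a filter on low counts 40 members were tested with edgeR's quasi-likelihood test, with adjustment over all 16720 genes and regions. None was called in either direction at an adjusted p under 0.05, where 0.111% of the 14397 genes tested were called lower and 0.0278% higher. At an unadjusted p under 0.05, 4 members were lower and 0 higher, beside 2.33% and 3.11% of all genes. DESeq2 called 1 member lower, Ndufc1 (adjusted p = 0.0450), where it called 0.229% of genes lower and 0.674% higher. Members that passed the filter through whole sperm alone had to differ. The 4 at an unadjusted p under 0.05, Ndufc1 among them, all passed it that way. These 4, the DESeq2 call, the 33 below 0 and the median of -1.78 among the 40 are therefore given only as a description. Over all tested genes 50.8% were below 0, with a median of -0.04. With the nuclei at 0 set to their bound the median of the 40 members was also -1.78.

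**Figure D1:**
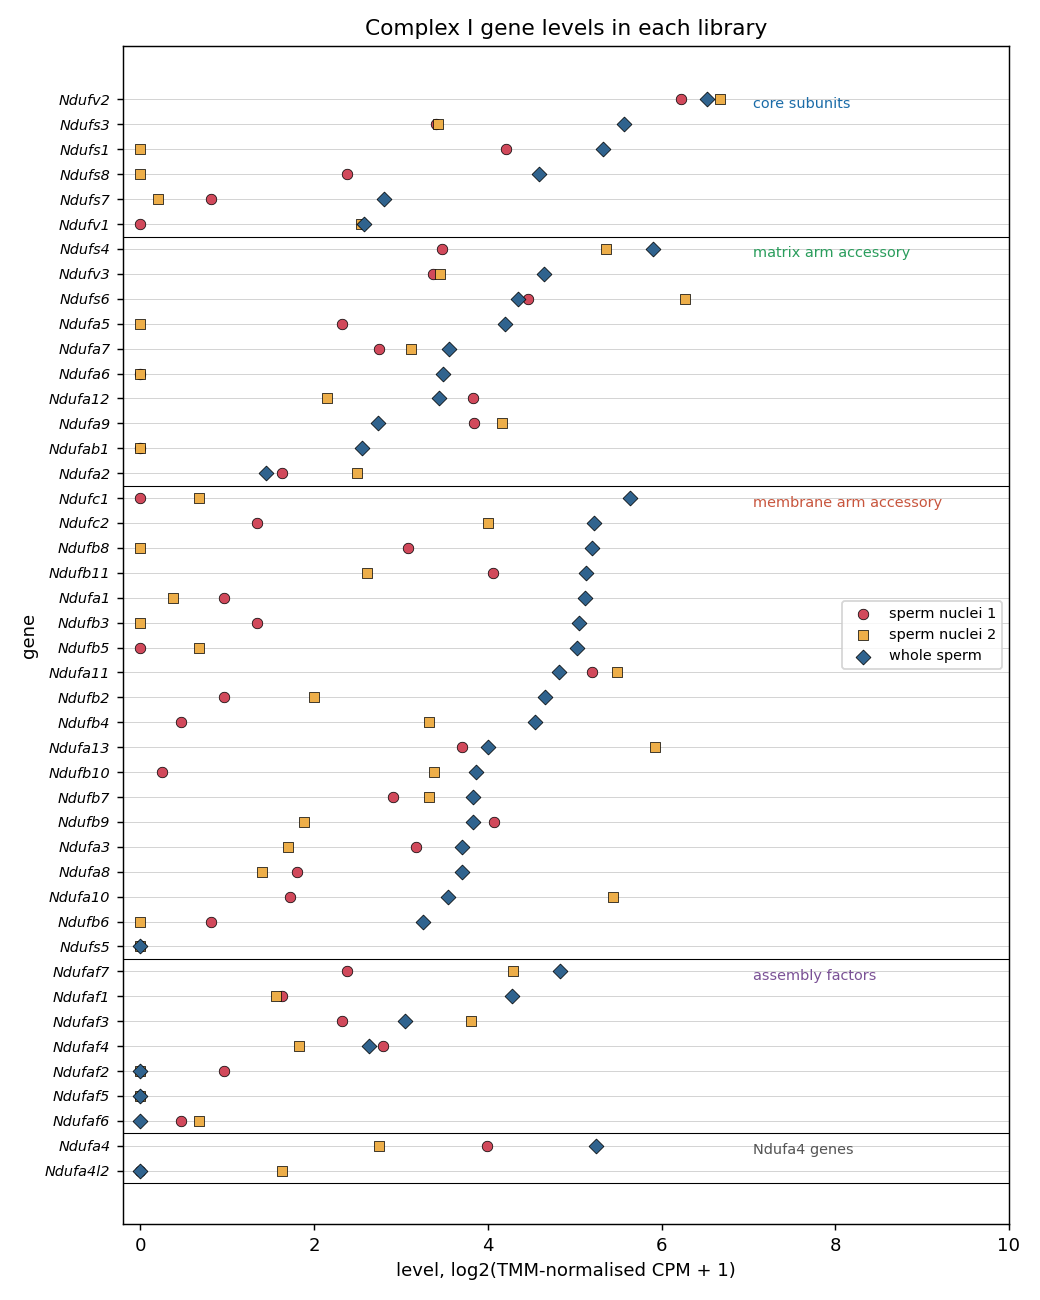
Level of 44 of the 45 genes in the 3 libraries, as log2(TMM-normalised CPM + 1) on the x axis, with genes on the y axis grouped by role and ordered by their whole-sperm level. The whole-sperm diamonds lie right of both nuclei markers for 28 of these genes and left of both for 5.

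The core subunits, which hold the flavin and the iron-sulfur clusters, were below 0 in 7 of 7 genes, none called. They summed to 106 and 118 CPM in nuclei against 227 CPM for whole sperm. Ndufv2, an iron-sulfur subunit beside the flavin site (17:66078638-66101559, mm10), was the most abundant complex I gene by its mean over the 3 libraries. It had 388 and 676 counts in nuclei against 788 for whole sperm, which is 74.0 and 101 CPM in nuclei against 91.0 CPM in whole sperm. The nuclei libraries lay on either side of whole sperm, and the log2 fold change was -0.05 ± 0.84 (SE, adjusted p = 1.00). Its sign turned, to 0.03, when the 10 most abundant features were left out.

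Ndufs3, a core subunit of the ubiquinone module, was even between the nuclei libraries. It was at 9.54 and 9.74 CPM in nuclei against 46.4 CPM for whole sperm (log2 -2.27 ± 1.54, adjusted p = 0.909). Both nuclei values were well below whole sperm. Of its 50-base words, 17.9% also occur in transcripts of other genes, so its count is uncertain. Ndufs1, the largest core subunit, was uneven, at 17.6 and 0 CPM in nuclei against 39.0 CPM for whole sperm (log2 -2.15 ± 1.73, adjusted p = 0.909). Ndufs8, a subunit with iron-sulfur clusters, showed the same split, at 4.20 and 0 CPM in nuclei against 23.1 CPM for whole sperm.

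Ndufs7, an iron-sulfur subunit beside the ubiquinone pocket, was scarce in nuclei. It had 4 and 1 counts in nuclei against 52 for whole sperm, so both nuclei values were below the whole-sperm value. Ndufv1, which binds the flavin, had 0 and 32 counts in nuclei against 43 for whole sperm. Its level in nuclei 2 alone, 4.80 CPM, was close to the 4.97 CPM of whole sperm, so its position rests on nuclei 1.

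The matrix arm accessory genes were mixed, with 7 of 10 below 0 and none called. They summed to 78.8 and 159 CPM in nuclei against 163 CPM for whole sperm. Ndufs4, whose loss in mice is used as a model of Leigh syndrome, was at 10.1 and 40.0 CPM in nuclei against 58.9 CPM for whole sperm (log2 -1.23 ± 1.13, adjusted p = 0.909). Ndufv3, an accessory subunit of the NADH module, was at 9.35 and 9.89 CPM in nuclei against 24.1 CPM for whole sperm. In both genes each nuclei library was below whole sperm, closely matched between the nuclei libraries for Ndufv3 and not for Ndufs4.

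A pair of interacting subunits had no count in nuclei. Ndufa6, a protein of the LYR family that binds the acyl carrier protein (15:82350140-82354322), had 0 and 0 counts in nuclei against 88 for whole sperm, at least 19.9-fold lower in nuclei against a floor of 3 counts per library. Ndufab1, the mitochondrial acyl carrier protein itself (7:122085403-122101886), had 0 and 0 counts in nuclei against 42 for whole sperm, at least 9.49-fold lower. Neither difference passed the test (adjusted p = 0.909 for both). Of the 11103 genes with at least 20 counts in whole sperm, 5.74% likewise had none in either nuclei library. Among the members it was these 2 of 39, which is near that share.

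Ndufs6, a zinc-binding subunit, Ndufa9, which contacts the ubiquinone site, and Ndufa2 were the matrix arm genes above 0. Each had both nuclei libraries above whole sperm in CPM. With spike-in scaling, which has the limit given above, all 3 were below 0, at -0.12 (Ndufs6), -0.02 (Ndufa9) and -0.48 (Ndufa2). By RPKM, nuclei 1 lay below whole sperm for Ndufs6 (13.4 against 26.2) and for Ndufa2 (1.01 against 1.77). Ndufs6 was at 21.0 and 76.3 CPM in nuclei against 19.4 CPM for whole sperm (log2 1.33 ± 1.21, adjusted p = 0.909). The difference came almost wholly from nuclei 2, since taking only nuclei 1 gave a log2 fold change of 0.11 and taking only nuclei 2 gave 1.97. Ndufa9 was at 13.4 and 16.9 CPM in nuclei against 5.66 CPM for whole sperm (log2 1.42 ± 2.67, adjusted p = 0.984). Ndufa2 had 11 and 31 counts in nuclei against 15 for whole sperm, and 11.5% of its exonic bases overlap exons of Tmco6 on the other strand.

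The rest of the matrix arm genes were near whole sperm or below it. Ndufa5 had 21 and 0 counts in nuclei against 150 for whole sperm. Ndufa7 had 30 and 51 counts in nuclei against 93 for whole sperm. Ndufa12, a late-joining subunit, had 69 and 23 counts in nuclei against 85 for whole sperm. Scaled to library size, Ndufa12 lay above whole sperm in nuclei 1, at 13.2 against 9.82 CPM, and below it in nuclei 2, at 3.45 CPM.

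Most membrane arm accessory genes were lower in nuclei. Of 18 with a count, 15 were below 0 and 14 had both nuclei libraries below whole sperm, none called. They summed to 112 and 205 CPM in nuclei against 424 CPM for whole sperm, 2.68-fold lower in nuclei, beside 2.03-fold for the core subunits and 1.37-fold for the matrix arm accessory genes. These folds were not tested against each other.

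Ndufc1, a small membrane arm subunit at 3:51404677-51408988 of build mm10, had 0 and 4 counts in nuclei against 422 for whole sperm, the most of any accessory gene of the membrane arm. In levels it was at 0.300 ± 0.424 CPM in nuclei (SD, n = 2) against 48.7 CPM for whole sperm, a log2 difference of -7.21 ± 2.24 (adjusted p = 0.228). Ndufb5 had 0 and 4 counts in nuclei against 274 for whole sperm (log2 -6.60 ± 2.97, adjusted p = 0.674), and 12.3% of its exonic bases overlap exons of Mrpl47 on the other strand. For each of these genes the nuclei were at or near 0 and whole sperm was not.

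X-linked Ndufa1 (X:37187588-37191163), a small subunit with a single membrane helix, had 5 and 2 counts in nuclei against 291 for whole sperm (log2 -5.72 ± 2.71, adjusted p = 0.755). Ndufb3 had 8 and 0 counts in nuclei against 279 for whole sperm (log2 -5.39 ± 2.74, adjusted p = 0.849). Ndufc1, Ndufb5, Ndufa1 and Ndufb3 are the 4 members at an unadjusted p under 0.05. They are also the 4 called lower with spike-in scaling, which called 3.66% of all genes lower and 0.00695% higher and moved the median of all genes to -1.48. All 4 passed the low-count filter through whole sperm alone, so they had to differ, and these p-values and calls are description only.

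Other genes of this arm were lower without reaching such values. Ndufb2 had 5 and 20 counts in nuclei against 210 for whole sperm, and Ndufb8 had 39 and 0 in nuclei against 309 for whole sperm. Ndufb11, the other X-linked member, was at 15.6 and 5.10 CPM in nuclei against 34.1 CPM for whole sperm (log2 -1.72 ± 1.77, adjusted p = 0.909). Exons of Rbm10 on the other strand overlap 12.9% of its exonic bases, and 17.5% of its words are shared, so its count is uncertain. Ndufc2 was at 1.53 and 15.0 CPM in nuclei against 36.4 CPM for whole sperm. The nuclei libraries thus differed several-fold from each other and were both below whole sperm.

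Ndufb4, Ndufb6, Ndufb7, Ndufb10, Ndufa3 and Ndufa8 also had both nuclei libraries below whole sperm, with log2 fold changes between -4.44 (Ndufb6) and -0.76 (Ndufb7). Ndufb10 had 1 and 63 counts in the nuclei libraries, against 117 for whole sperm. Ndufb4 had 2 and 60 counts in nuclei against 193 for whole sperm, and 18.3% of its words are shared with other genes, among them the copy Ndufb4c. Ndufb6 shares 39.0% of its exonic bases with Smim27 on the other strand. Ndufb9, a LYR family protein, was at 15.8 and 2.70 CPM in nuclei against 13.2 CPM for whole sperm, on both sides of whole sperm. Exons of Gm49356 on the same strand overlap 19.5% of its exonic bases, so its count is uncertain.

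A few membrane arm genes were above 0, though with spike-in scaling all 3 were below it, at -0.89 (Ndufa11), -0.18 (Ndufa13) and -0.38 (Ndufa10). Ndufa11, a multi-helix membrane subunit, was at 35.7 and 43.8 CPM in nuclei against 27.1 CPM for whole sperm (log2 0.55 ± 1.21, adjusted p = 0.991), with both nuclei libraries above. Ndufa13, also known as GRIM-19, was at 12 and 60.0 CPM in nuclei against 15.0 CPM for whole sperm (log2 1.26 ± 1.43, adjusted p = 0.909). Ndufa10, a subunit with a nucleoside kinase fold, was at 2.29 and 42.4 CPM in nuclei against 10.6 CPM for whole sperm (log2 1.07 ± 1.91, adjusted p = 0.978). The direction of Ndufa13 and Ndufa10 depends on 1 library: from nuclei 1 alone they were at -0.32 and -2.21, and from nuclei 2 alone both were at 2.00.

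Exons of Tssk6, a testis-specific kinase gene, cover 29.98% of the exonic bases of Ndufa13 on the other strand. Tssk6 was at 105 and 263 CPM in nuclei against 199 CPM for whole sperm. Whether the counting used strand is not given in the sources used here, so reads of the genes cannot be told apart. The part of this overlap in the Ndufa13 value was not tested.

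**Figure D2:**
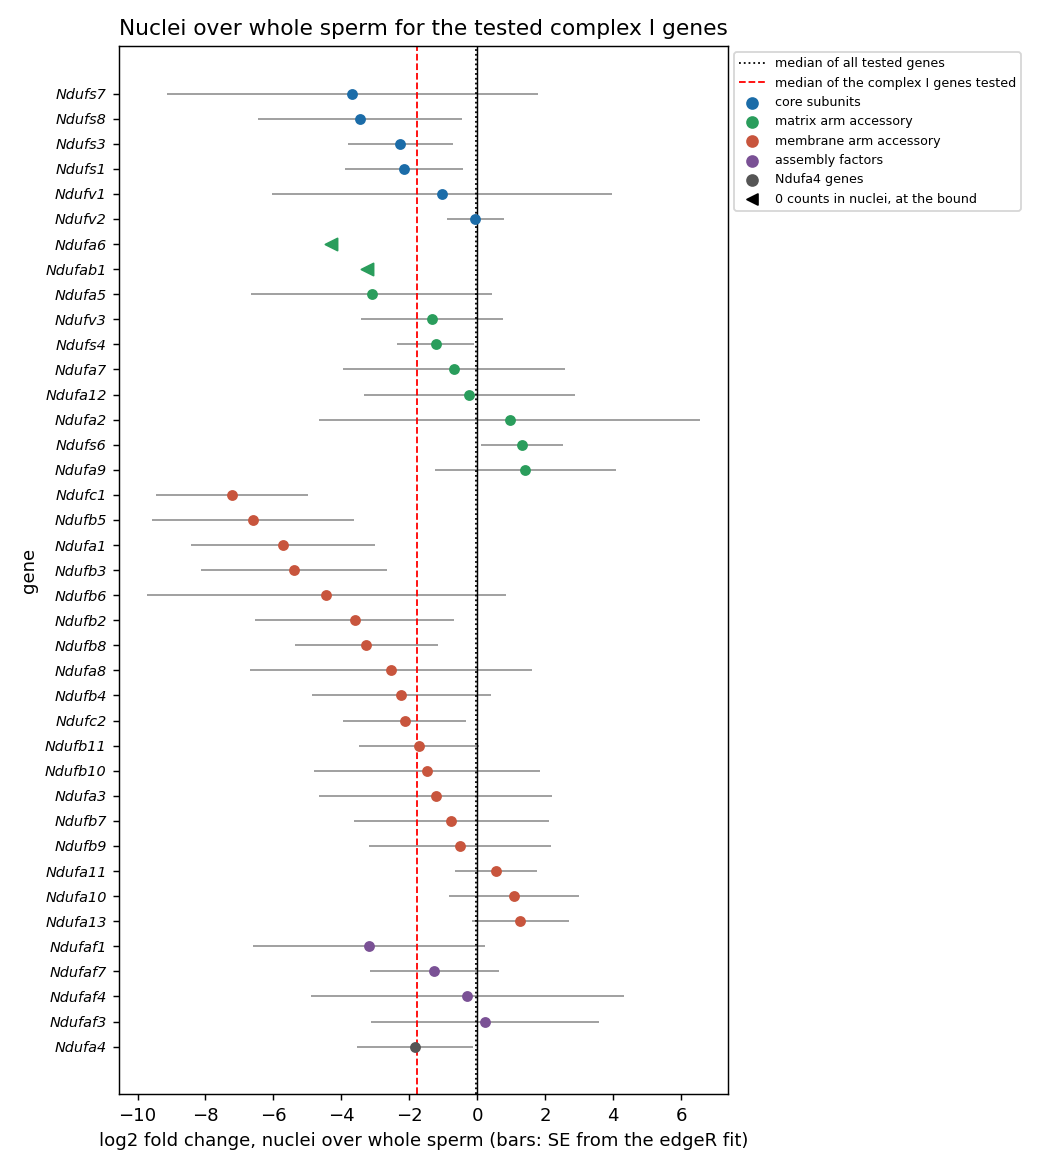
Log2 fold change of nuclei over whole sperm (x axis) for 39 of the 40 tested genes (y axis), coloured by role, with bars of 1 SE from the edgeR fit; triangles mark Ndufa6 and Ndufab1 at their bound. The dashed line marks the median of all 40, -1.78, and the dotted line that of all tested genes, -0.04.

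Assembly factors had few counts. They summed to 17.6 and 36.7 CPM in nuclei against 58.3 CPM for whole sperm, and 3 of the 6 with a count were below 0. Ndufaf7, a mitochondrial methyltransferase, was at 4.20 and 18.6 CPM in nuclei against 27.4 CPM for whole sperm (log2 -1.26 ± 1.89, adjusted p = 0.954). Ndufaf1, a chaperone of the intermediate that forms the membrane arm, had 11 and 13 counts in nuclei against 160 for whole sperm, closely matched in nuclei (log2 -3.18 ± 3.42, adjusted p = 0.909).

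Ndufaf3 and Ndufaf4, which act together on the ubiquinone module, straddled whole sperm in CPM. By RPKM both nuclei libraries were below whole sperm for each of these genes. Ndufaf3 had 21 and 87 counts in nuclei against 63 for whole sperm. Ndufaf4 had 31 and 17 in nuclei and 45 in whole sperm, which is 5.92 and 2.55 CPM in nuclei against 5.20 CPM for whole sperm. The sign of Ndufaf3 (log2 0.23) turned with spike-in scaling, to -1.21, and from nuclei 1 alone, to -0.86. Ndufaf2 and Ndufaf6 had counts in nuclei only, 5 and 0 for Ndufaf2 and 2 and 4 for Ndufaf6, close to the floor of 3 counts, so no fold is given. Over its length 65.6% of the exonic bases of Ndufaf2 are overlapped by B230220B15Rik on the other strand. Ndufaf5 was at 0 in all 3 libraries, in counts and in RPKM.

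Assembly factors with other names were mixed. Of 10 with a count 6 were below 0, and of the 7 tested 3 were, none of them called. They summed to 38.5 and 36.9 CPM in nuclei against 54.9 CPM for whole sperm. Foxred1 was at 12.6 and 18.4 CPM in nuclei against 15.8 CPM for whole sperm, and Acad9, a partner of Ndufaf1, at 11.1 and 5.10 CPM in nuclei against 15.7 CPM for whole sperm.

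Ndufa4 was at 14.9 and 5.70 CPM in nuclei against 37.0 CPM for whole sperm (log2 -1.84 ± 1.71, adjusted p = 0.909), below whole sperm in both libraries. Ndufa4l2 had 0 and 14 counts in nuclei against 0 for whole sperm. The authors' RPKM table listed it at 0.552 and 1.36 RPKM in nuclei against 0 RPKM for whole sperm, so its count in nuclei 1 is uncertain. Without the pair, the remaining tested members had a median of -1.72.

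Transcripts at 0 in a single nuclei library were about as common among complex I genes as among all genes. Nuclei 1 lacked counts for 9 members and nuclei 2 for 11, and 12 of the 43 members with a count were at 0 in exactly 1 of these libraries. Of all genes with a count, 28.7% were at 0 in exactly 1 nuclei library. Whole sperm lacked counts for 5 members.

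Levels scaled to transcript length and library (RPKM), from the authors' own table, allow genes to be compared. In whole sperm the members ranged from 0 to 91.3 RPKM, with a median of 10.3. In nuclei the median was 0.736 RPKM in nuclei 1 and 1.69 RPKM in nuclei 2. Ndufc1 had the highest whole-sperm level, at 91.3 RPKM, followed by Ndufa1 at 53.4 and Ndufb2 at 41.5. The next were Ndufv2 and Ndufa4, both at 38.4 RPKM, and with 1 whole-sperm library no spread separates these neighbours. By their mean over the nuclei libraries the leading genes of nuclei were Ndufs6, at 13.4 and 54.6 RPKM, and Ndufv2, at 19.5 and 28.0 RPKM. The whole-sperm level of Ndufs6, 26.2 RPKM, lay between its nuclei values.

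By RPKM the members lay further below whole sperm than by counts. Of 44 members with a value, 38 had a lower mean of log2(RPKM + 0.1) in nuclei, with a median difference of -2.55, beside 62.6% of 17430 genes and a median of -0.67. Both nuclei libraries were below whole sperm for 35 members, where 50.0% of genes were. limma on these values called 0 members and 0 genes at an adjusted p under 0.05, and at an unadjusted p under 0.05 it gave 6 of 44 members lower and 0 higher. This is near the background, since 14.2% of all genes were lower and 0.815% higher at that threshold. Of the genes above 0 by counts, Ndufa9 kept both nuclei libraries above whole sperm, at 3.65 and 7.68 RPKM against 2.77 RPKM. Ndufa13 was at 2.88 and 19.5 RPKM in nuclei against 8.57 RPKM for whole sperm.

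Ndufs5, a membrane arm subunit, was at 0 counts throughout but was listed at 0.492 and 0 RPKM in nuclei against 2.26 RPKM for whole sperm. Of its 50-base words, 21.7% are shared with a single other gene, BC002163. Its count is therefore uncertain.

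**Figure D3:**
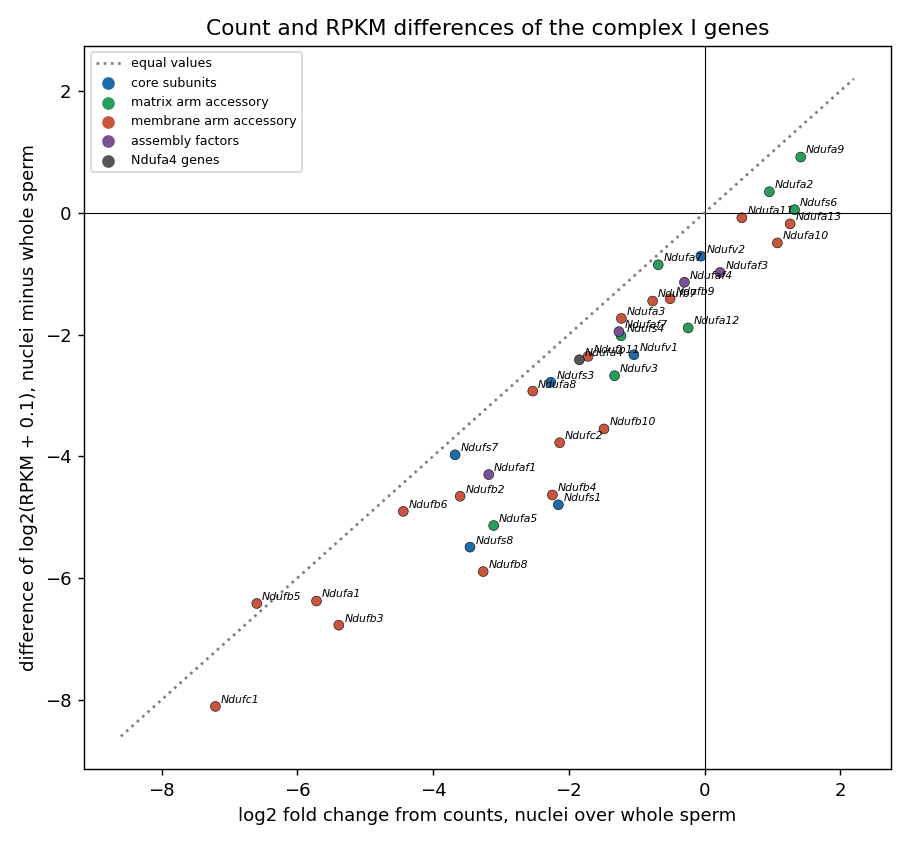
Log2 fold change from counts (x axis) against the difference of mean log2(RPKM + 0.1) (y axis), both nuclei relative to whole sperm, for 37 tested genes with a count in nuclei. Points lie under the dotted line of equal values for 36 of them.

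The other respiratory complexes also had lower summed levels in nuclei. Complex II genes summed to 36.3 and 21.9 CPM in nuclei against 108 CPM for whole sperm, with 3 of 4 tested genes below 0; Sdha, the flavin subunit, was at 19.1 and 2.40 CPM in nuclei against 72.8 CPM for whole sperm. Complex III genes summed to 88.9 and 82.4 CPM in nuclei against 198 CPM for whole sperm, with 6 of 8 below 0. Complex IV genes summed to 287 and 242 CPM in nuclei against 550 CPM for whole sperm, with 10 of 13 below 0. Complex V genes summed to 234 and 289 CPM in nuclei against 612 CPM for whole sperm, with 12 of 16 below 0.

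No gene of complexes II to V was called. The summed levels were 3.72, 2.31, 2.08 and 2.34-fold lower in nuclei for complexes II, III, IV and V, beside 2.13-fold for the complex I genes, and these were not tested against each other. Cox6b2, the testis form of a complex IV subunit, was at 93.1 and 73.5 CPM in nuclei against 55.7 CPM for whole sperm, whereas Cox7a2 was at 55.2 and 38.1 CPM in nuclei against 100.2 CPM for whole sperm.

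**Figure D4:**
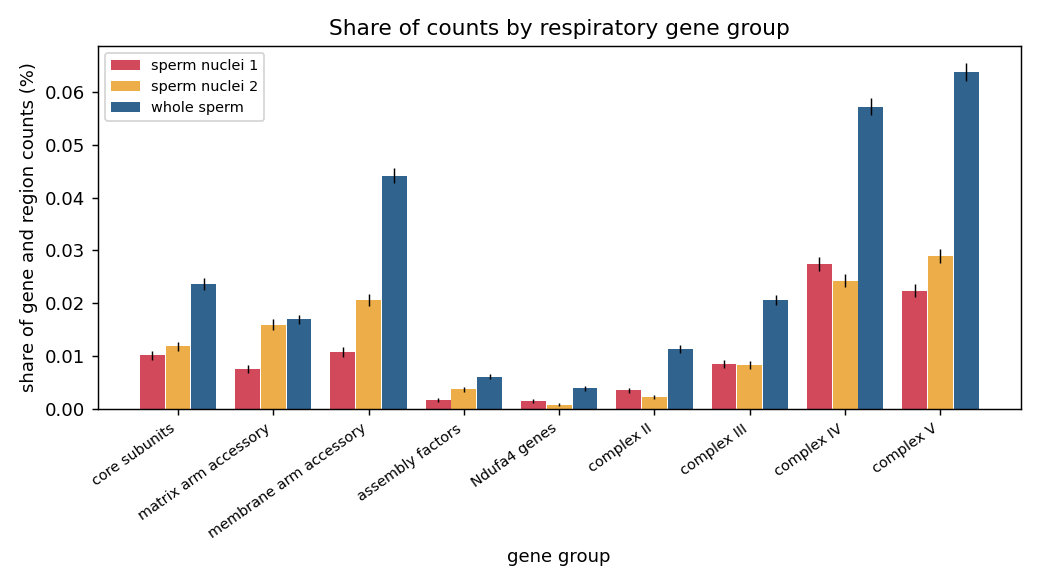
Share of all gene and region counts (y axis, percent) taken by each group of complex I genes and by the other respiratory complexes (x axis), by library. Bars carry exact 95% binomial intervals; for the membrane arm genes they stand at 0.0107% and 0.0205% in the nuclei libraries and 0.0442% in whole sperm.

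Markers of other cell types moved in the same direction in part. Of the epididymal genes, 17 of 19 tested were below 0 and 2 were called lower (Crisp1 and Spink10), while 10 of the 33, among them Lcn5, Lcn8 and Rnase10, were at 0 in every library. Epithelial markers summed to 208 and 262 CPM in nuclei against 722 CPM for whole sperm, with 13 of 18 below 0, Cldn8 called lower and Krt14 at 0. Spermatid genes moved the other way, with 5 of 20 below 0 and none called. The part of epididymal or epithelial RNA in the complex I values was not tested.

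Leukocyte markers summed to 529 and 194 CPM in nuclei against 167 CPM for whole sperm, of which Cx3cr1 was at 490 and 176 CPM in nuclei against 66.1 CPM for whole sperm; 12 of 14 tested were below 0. Smooth muscle and stroma markers summed to 186 and 170 CPM in nuclei against 165 CPM for whole sperm (6 of 15 below 0, Des at 0). Sertoli and Leydig markers summed to 68.1 and 101 CPM in nuclei against 207 CPM for whole sperm, mostly Clu, with Amh, Gata4, Star, Hsd3b1, Insl3 and Cyp11a1 at 0. Erythrocyte genes had 0 and 4 counts in nuclei against 3 for whole sperm, all of Alas2, while the authors' RPKM table gave the list 1.56 and 0.0890 RPKM in nuclei against 38.5 RPKM for whole sperm.

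In the authors' adjusted whole-sperm column, where the mean of the nuclei counts had been taken off and nothing went under 0 (within 0.5 for all 45 members), complex I kept 5622 of 7870 (71.4%), where all rows kept 40.8%. Members set to 0 numbered 6 of the 40 with a whole-sperm count, beside 32.5% of all genes. Since it is made from the counts above, it adds no separate evidence.

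The start regions of 39 members were found among RefSeq windows (build GRCm38.p6) of 250 bases before to 50 after a gene's start. The letters AAGATGGC, part of the motif of the factor YY1 and chosen after the windows were read, occurred on either strand in 7 of the 39 (17.9%), against 3.19% of 27025 genes. Of these 7 (Ndufa3, Ndufa9, Ndufb8, Ndufc1, Ndufs4, Ndufs6 and Ndufs7), 5 were below 0 and 2 above 0, among 30 and 6 genes with a window. A 10-letter palindromic form of the NRF1 motif was found in 3 members, Ndufa11, Ndufaf4 and Ndufaf5 (7.69%, against 1.07% of genes), and the GABP letters CCGGAAGT in 1, Ndufs3 (2.56%, against 4.31%), searched on both strands. A match is a description, not a site, and no other of these motifs lies in the windows printed. AAGATGGC also holds ATG, the letters of a start codon, and the windows reach 50 bases into the gene. Whether the matches lie at start codons was not tested, so their share is not read as a trait of the promoters. Windows are shown for the gene with the lowest fold change among members with a count in nuclei and for a pair with both nuclei libraries above whole sperm in CPM, 5′ to 3′ on the gene's own strand (minus), with AAGATGGC in capitals: chr3:51408906-51409205 for Ndufc1, chr6:126849095-126849394 for Ndufa9 and chr13:73328433-73328732 for Ndufs6.
Ndufc1: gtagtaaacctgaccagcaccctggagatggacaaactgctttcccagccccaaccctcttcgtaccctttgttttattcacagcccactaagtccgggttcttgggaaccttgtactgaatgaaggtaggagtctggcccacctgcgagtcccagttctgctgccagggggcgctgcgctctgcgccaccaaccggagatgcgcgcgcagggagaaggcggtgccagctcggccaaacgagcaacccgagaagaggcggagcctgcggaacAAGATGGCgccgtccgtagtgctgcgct
Ndufa9: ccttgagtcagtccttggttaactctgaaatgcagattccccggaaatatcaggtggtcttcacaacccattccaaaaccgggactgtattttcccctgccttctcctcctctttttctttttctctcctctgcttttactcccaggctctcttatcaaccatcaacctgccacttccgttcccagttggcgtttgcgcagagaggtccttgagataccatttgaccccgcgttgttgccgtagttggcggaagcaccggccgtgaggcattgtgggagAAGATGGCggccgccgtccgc
Ndufs6: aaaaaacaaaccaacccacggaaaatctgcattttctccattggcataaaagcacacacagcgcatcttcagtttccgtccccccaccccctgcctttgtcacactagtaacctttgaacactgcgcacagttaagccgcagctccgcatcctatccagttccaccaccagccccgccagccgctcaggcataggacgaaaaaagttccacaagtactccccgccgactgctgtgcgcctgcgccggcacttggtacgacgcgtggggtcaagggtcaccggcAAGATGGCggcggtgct
All 3 windows were chosen among those that hold these letters. The window of Ndufa11, also with both nuclei libraries above whole sperm in CPM, does not hold them.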

How the data were processed

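RNA-seq covered 3 preparations, each run 2 times (6 samples), and was analysed as 2 nuclei columns and 1 whole-sperm column. Read counts, unnormalized, were deposited by the authors for genes and further transcribed regions. The RPKM values were deposited by the authors, with 1 column per preparation per the file headers. The adjusted whole-sperm column was deposited by the authors and handled as a score. Per the submitters' processing notes, the tools were HTSeq, TopHat2 2.0.12, DESeq2, CASAVA 1.8.2, bedtools, Cufflinks 2.1.1 and SAMtools 0.1.19, on build mm10. For their roles, settings and strand mode, nothing is given in the sources used here. Left out were the ERCC spike-ins and, for whole sperm, rows for reads in no feature (34.4% of the column) or in several (1.97%).

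Members were tested in edgeR 4.0.16 under R 4.3.3 by its quasi-likelihood method, with TMM factors, filterByExpr and Benjamini-Hochberg adjustment over all 16720 features tested (threshold 0.05), with 1 residual degree of freedom. Its prior degrees of freedom were infinite and the common biological coefficient of variation was 1.30, so p-values and standard errors, derived from the F statistic, rest on a spread pooled over genes, and whole sperm, with 1 library, is taken to vary as the nuclei do. limma 3.58.1 on log2(RPKM + 0.1), whose differences understate low genes, and DESeq2 1.42.0 were alternatives, beside other scalings, filters and each nuclei library alone; shared or overlapped genes were left out as an alternative chosen after seeing the data. The scripts were tested on simulated data. Positions, exon overlaps and shared 50-base words come from GENCODE vM21, on the assembly of mm10, where all 45 members were found; copies without an annotated transcript were not searched.

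The members and lists were chosen with earlier results of these data known. Named with values were the 4 most abundant members of each role, up to 5 fold changes in each direction at a mean of at least 20 CPM, members at 0 in 1 fraction with at least 20 counts in the other, and the 2 most abundant genes of other lists. Fewer than 5 members in each direction reached that mean, so all that reached it were named. Members named beyond this, such as Ndufc1, were named after their values were seen, to account for every member. Values of 1 member are not reported here and are not drawn, though counts, sums and medians over the members include it.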

Additional observations from a re-analysis of the deposited data

How the results depend on the processing

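In each of the 12 alternative fits of the whole table the complex I median was below that of all genes. Set against -1.78, it was -1.73 with DESeq2 size factors and also with DESeq2's test, -1.88 with library size alone, -1.70 without the 10 most abundant features, -1.48 with no filter (43 genes), -1.74 at a mean of at least 10 CPM (21 genes, 16 of them below 0), -1.72 without the Ndufa4 genes and -1.84 without genes sharing or overlapping over 10% of their sequence. It was -3.21 with spike-in scaling, where the median of all genes was -1.48. That scaling rests on 23 spike-ins that held 364403 of the 2570688 spike-in counts of whole sperm. On RPKM it was -2.55, or -2.12 with 1 added in place of 0.1, or -2.86 at a mean of at least 1 RPKM. From 1 nuclei library alone it was -2.27 to -2.26, with 32 to 33 genes below 0.

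The log2 ratio of the summed level, -1.09, was -2.53 with spike-in scaling, -2.08 for summed RPKM and -1.46 to -0.79 from 1 nuclei library alone. Members called lower numbered 4 with spike-in scaling and 1 with DESeq2, and 0 in the other settings. These members passed the low-count filter through whole sperm alone. Genes called higher over the whole table, 4 in the main test, numbered 2 with library size alone, 1 with spike-in scaling, 97 with DESeq2, and 0 at a mean of at least 10 CPM and in the RPKM tests. Genes called lower, 16, numbered 527 with spike-in scaling, 33 with DESeq2, and 0 at a mean of at least 10 CPM and in the RPKM tests. The cause of these shifts was not tested.

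Signs of named genes turned in 19 of 183 values from fits to all libraries. From nuclei 1 alone signs also turned for Ndufa10 (-2.21), Ndufa13 (-0.32), Ndufaf3 (-0.86) and Ndufaf4 (0.19), and from nuclei 2 alone for Ndufv2 (0.16). With spike-in scaling Ndufa10 was at -0.38, Ndufa11 at -0.89, Ndufa13 at -0.18, Ndufa9 at -0.016, Ndufaf3 at -1.21 and Ndufs6 at -0.12. On log2(RPKM + 0.1), with or without the minimum of 1 RPKM, Ndufa10 was at -0.50, Ndufa11 at -0.082, Ndufa13 at -0.18 and Ndufaf3 at -0.98; with 1 added they were at -0.12, -0.072, -0.10 and -0.71. Ndufv2 was at 0.025 without the 10 most abundant features. Depth limits the members whose nuclei counts are near the floor of 3 counts. No paired analysis was possible because whole sperm has 1 preparation.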
